A study of Mus musculus with 8 samples.

Results

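The genes described here make, modify and crosslink the collagen and basement membrane scaffold of the heart. They were chosen by name, as a list of 36 mouse genes, with earlier results of these data known. Each was found once by its symbol among the 55487 genes of the deposited count table. All 36 passed the filter on low counts, which left 13648 genes for testing. They fall into 5 fibrillar collagens, 10 other genes of the interstitial matrix, 13 genes of the basement membrane and 8 genes of collagen processing and crosslinking.

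The study compared 4 libraries from hearts of db/db mice given DIZE (read here as the trypanocidal drug diminazene aceturate) with 4 libraries from hearts of db/db mice given vehicle. Both groups carry the db/db genotype, a loss of the long leptin receptor that leads to obesity and diabetes, and no lean or non-diabetic heart is among the libraries. The subject of the series is diabetic cardiomyopathy. The sources used here give no age, sex, dose or length of treatment and do not say that the libraries are from different animals. The p-values therefore measure the spread between these libraries, which may be technical. Poly(A)-selected RNA was sequenced with a stranded kit.

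Fibrillar collagens are laid down mainly by cardiac fibroblasts as rope-like fibres that give the ventricle its stiffness and strength. Basement membranes are thin sheets of laminin, type IV collagen, nidogen and perlecan that wrap every cardiomyocyte and capillary. New collagen chains are hydroxylated and folded in the endoplasmic reticulum, trimmed outside the cell, and then joined into stable fibres by lysyl oxidases. Excess deposition and crosslinking of this scaffold is known from diabetic hearts, where it goes with impaired relaxation.

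Sequence is shown for the type IV collagen pair, because its genes share a start region, and for Lamb2 and Col8a1, because they had the smallest unadjusted p in each direction. The annotated first exons of Col4a1 and Col4a2 lie head to head on opposite strands and overlap by 22 bases at chr8:11312805-11312826 of GRCm38, printed on the plus strand. The other lines lie in the 250 bases before the RefSeq start of the gene on GRCm38.p6, read on the strand of the gene (Lamb2 on plus, Col8a1 on minus). Capitals mark the letters of a GC box (GGGCGG), of CCAAT or of TATAAA on either strand, and no marked stretch overlaps another.
Col4a1 and Col4a2, shared bases: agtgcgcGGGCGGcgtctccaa
Lamb2, chr9:108479612-108479735: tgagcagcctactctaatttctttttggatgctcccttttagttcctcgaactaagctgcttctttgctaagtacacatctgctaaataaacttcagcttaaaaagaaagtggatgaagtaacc
Col8a1, chr16:57754738-57754987: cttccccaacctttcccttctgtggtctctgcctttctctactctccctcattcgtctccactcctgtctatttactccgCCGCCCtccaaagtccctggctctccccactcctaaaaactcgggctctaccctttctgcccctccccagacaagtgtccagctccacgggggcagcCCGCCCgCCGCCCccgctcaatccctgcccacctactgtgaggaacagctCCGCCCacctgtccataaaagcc
GENCODE starts Lamb2 126 bases before RefSeq does, and only the 124 bases before the GENCODE start are shown. They were 37.9% GC, and neither they nor the rest of the Lamb2 window held any of the searched letters. The window before Col8a1 was 60.8% GC and held the GC box letters at 4 places. RefSeq windows were found for 24 of the 36 genes, in 26 windows. GC box letters were in 17 of these (65.4%), against 32.7% of all 32851 windows of the same length, CCAAT in 7 (26.9%, against 33.8%) and TATAAA in 2 (7.69%, against 12.4%). Of the 11 windows of basement membrane genes, 6 held CCAAT, among them all 3 type IV collagen windows (Col4a1, Col4a2 and Col4a5). The median GC content was 61.2% in the windows of these genes and 52.4% in all windows.

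No gene of the list passed the test. With edgeR (quasi-likelihood, p-values adjusted by Benjamini-Hochberg over all genes tested), 0 of 36 passed an adjusted p of 0.05, where 0.0366% of all genes passed, and the smallest adjusted p was 0.145. At an unadjusted p under 0.05 there were 8 of 36 (22.2%), against 19.4% of all genes tested. Of these, 6 were lower in DIZE hearts, where 10.3% of all genes were, and 2 were higher, where 9.11% were. DESeq2 also gave 0 past the adjusted threshold, where 4.44% of all genes passed, and the same count of 8 at the unadjusted one, where 19.5% did. The list's share lay close to that of all genes. Without DIZE 1 the count of 8 fell to 3, where 16.2% of all genes tested were at that p. It was 5 without DIZE 3 (14.2% of all genes) and 5 without vehicle 4 (18.2%). Of the 36 genes, 22 (61.1%) lay lower in DIZE hearts and 14 higher, against 51.8% lower among all genes. After removal of the trend of each library on GC content and transcript length, 0 of 36 passed (0.0513% of all genes), 8 were lower (9.53% of all genes) and 1 was higher (8.9%) at an unadjusted p under 0.05, and 24 of 36 lay lower (49.7% of all genes). The median log2 fold change, DIZE over vehicle, was -0.12 for the list and -0.01 for all genes tested. A gene that missed the threshold is not thereby shown to be equal in both groups, since the median standard error of these log2 values was 0.21.

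Levels below are CPM, read counts scaled by the reads of each library in tested genes and its TMM factor. A ± after a CPM is the SD over 4 libraries, and after a log2 fold change the SE. Each library holds RNA of all cells of the tissue, so fewer cells of a type and less RNA per cell cannot be told apart. The lowest read count of any member in any library was 44, for Fmod, and the highest 8789, for Hspg2.

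**Figure D1:**
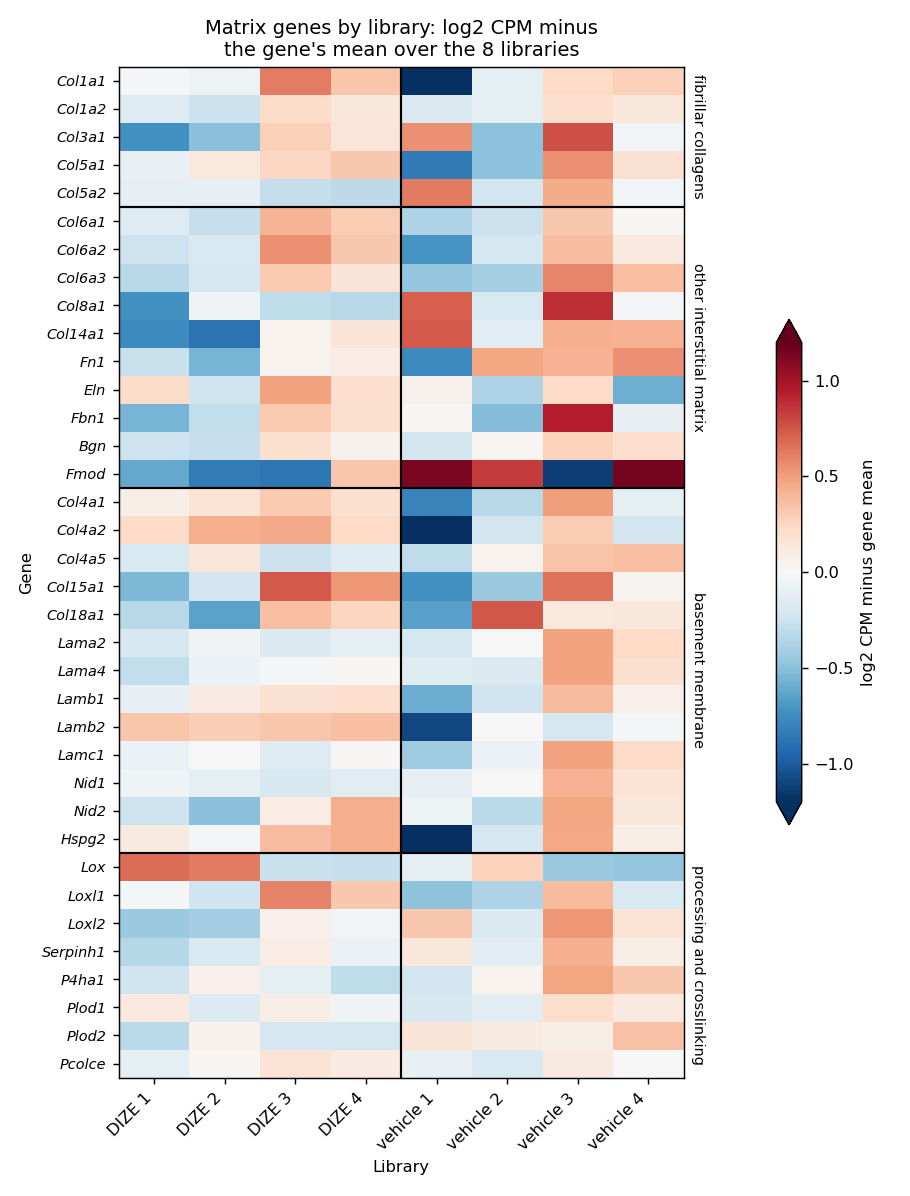
Level of each of the 36 genes (rows, by class) in each library (columns, DIZE left of vehicle), as log2 CPM minus the mean of the gene over the 8 libraries, with the colour scale ending at -1.2 and 1.2. Vehicle 1 was the lowest library for 18 genes and vehicle 3 the highest for 18, and rows differ more among vehicle libraries than among DIZE libraries.

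The spread within the groups was uneven, as the map of levels by library shows. Vehicle 1 had the lowest level of 18 of the 36 genes and vehicle 3 the highest of 18. The basement membrane genes summed to 3185, 3304, 3653 and 3606 CPM in DIZE 1 to 4, against 1787, 2743, 3943 and 3126 CPM in vehicle 1 to 4. DIZE libraries thus lay inside the range of vehicle libraries and covered less of it. The relative spread (SD over mean) was smaller in DIZE hearts for 29 of 36 genes (80.6%), against 58.8% of all genes tested. Without vehicle 1 it was smaller for 23 genes (63.9%), against 43.5% of all genes.

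Vehicle 1 also stood apart in base composition. Across all tested genes, Spearman's rho between GC content and the log2 deviation of a library from the mean of all 8 was -0.46 in vehicle 1, against 0.29, -0.08, 0.39 and 0.38 in DIZE 1 to 4 and -0.11 to 0.08 in the other vehicle libraries. The 36 genes are GC-rich, with a median of 53.6% in their longest transcript against 49.6% for all genes tested. Of the 18 members above their own median GC content, 12 lay higher in DIZE hearts, and of the 18 below it, 2 did. Over the 36 genes rho between GC content and log2 fold change was 0.66, and 0.46 after that trend was removed. These genes share libraries and depth, so these values describe them only. How much of any one result comes from composition was not tested, and where removing the trend moved a log2 value by over 1.5 times or changed its side of an unadjusted p of 0.05, that is given beside it.

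Markers of other tissue and cell types also differed between libraries. The 4 atrial markers Myl7, Sln, Myl4 and Bmp10 summed to 2.63 to 101 CPM in DIZE hearts and 3.35 to 739.7 CPM in vehicle hearts, with Bmp10 at 0 in all 4 DIZE libraries. Vehicle 2 held 1348 CPM of the liver transcript Alb, against at most 6.38 CPM elsewhere. Cardiomyocyte markers were abundant in all libraries, with Myh6 at 17053 to 20810 CPM in DIZE hearts and 8858 to 19354 CPM in vehicle hearts. All 8 lay higher in DIZE hearts, 1 of them at an unadjusted p under 0.05 (9.11% of all genes tested), and none passed after adjustment. With the trend removed 1 lay lower. They summed to 42387 to 48275 CPM in DIZE hearts and 29128 to 47033 CPM in vehicle hearts, lowest in vehicle 1. All 5 erythroid markers (Hba-a1, Hba-a2, Hbb-bs, Hbb-bt and Alas2) lay lower in DIZE hearts at an unadjusted p under 0.05 (10.3% of all genes tested). Groups did not overlap for 4 of them (5.26% of all genes in that direction), and none passed after adjustment. The sums of all 5 did not overlap, at 8.95 to 78.4 CPM in DIZE hearts and 101 to 210 CPM in vehicle hearts. The median log2 fold change of the 5 was -1.79. Of 10 fibroblast markers 9 lay lower in DIZE hearts, 5 of them at an unadjusted p under 0.05 (10.3% of all genes tested were lower at that p), and none passed after adjustment. The median log2 fold change of these markers was -0.61, and 4 of them (Ddr2, Mfap5, Lum and Dcn) are also in the wider matrix list counted below. The summed level of all 10 overlapped, at 2625 to 4128 CPM in DIZE hearts and 3167 to 4666 CPM in vehicle hearts. Of these sums Gsn alone gave 1454 to 2583 CPM in DIZE hearts and 1763 to 2044 CPM in vehicle hearts. Gsn was the marker that lay higher (log2 0.17 ± 0.16, or -0.07 with the trend removed). Of 8 tested endothelial markers 6 lay lower, summing to 959 to 1347 CPM in DIZE hearts and 1086 to 1511 CPM in vehicle hearts. The ranges were 1512 to 1641 CPM in DIZE hearts and 1591 to 1955 CPM in vehicle hearts for smooth muscle and pericyte markers, and 291 to 315 CPM in DIZE hearts and 304 to 492 CPM in vehicle hearts for macrophage markers. The part of these differences in the matrix values was not tested.

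Of the 5 fibrillar collagens 3 lay lower and 2 higher in DIZE hearts, against 51.8% lower among all genes tested. The 1 at an unadjusted p under 0.05, Col5a2, was lower (10.3% of all genes tested were lower at that p). Col3a1, which makes type III collagen of the fine reticular network, had 124, 145, 251 and 228 CPM in DIZE 1 to 4, against 301, 146, 351 and 201 CPM in vehicle 1 to 4. DIZE 1 and 2 were low, and vehicle 1 and 3 high, with the groups overlapping in between (log2 fold change -0.42 ± 0.29 SE, edgeR adjusted p = 0.452). Col1a1, one chain of type I collagen, the main load-bearing fibre, had 108, 105, 167 and 138 CPM in DIZE hearts, against 45.1, 102, 129 and 133 CPM in vehicle hearts. Only vehicle 1 lay outside the range shared by the others at the low end, and the log2 fold change of 0.34 ± 0.29 was 0.09 without it and 0.14 with the trend removed. Col1a2, the partner chain, had 153, 143, 199 and 187 CPM in DIZE hearts and 152, 158, 197 and 187 CPM in vehicle hearts, so the groups spanned nearly the same range (log2 -0.02 ± 0.14, or -0.09 with the trend removed).

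The type V chains, which start and limit fibril growth, were on both sides of 0. Col5a2 had 45.8, 46.6, 40.7 and 40.1 CPM in DIZE hearts, against 76.9, 42.8, 67.7 and 48.8 CPM in vehicle hearts. Vehicle 2 fell inside the DIZE range and the other vehicle libraries lay above it (log2 -0.45 ± 0.18, edgeR adjusted p = 0.202). Col5a1, its partner, had 61.3 to 81.3 CPM in DIZE hearts and 36.2 to 95.1 CPM in vehicle hearts (log2 0.22 ± 0.26, or 0.02 without vehicle 1 and 0.06 with the trend removed).

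Ratios of chains, in CPM per kilobase of the principal transcript, set 2 genes of 1 library against each other. The transcript ratio of Col1a1 to Col1a2 was below 1 in all 8 libraries. Its level depends on the length used, so it cannot be set against the make-up of type I collagen, which holds more of the Col1a1 chain. The principal transcripts have 5930 bases for Col1a1 and 5348 for Col1a2, and all annotated exons 6563 and 12426. The ratio of Col1a1 to Col1a2 was 0.637, 0.662, 0.759 and 0.664 in DIZE 1 to 4, against 0.269, 0.578, 0.592 and 0.643 in vehicle 1 to 4. With the GC and length trend removed it was 0.593 to 0.691 in DIZE hearts and 0.297 to 0.681 in vehicle hearts, and vehicle 1 was still the lowest. The ratio of Col5a1 to Col5a2 was 1.06 to 1.60 in DIZE hearts and 0.371 to 1.19 in vehicle hearts. With the trend removed it was 0.956 to 1.43 in DIZE hearts and 0.472 to 1.25 in vehicle hearts. For Col6a1 to Col6a2 the ratio was 1.04 to 1.22 in DIZE hearts and 1.07 to 1.44 in vehicle hearts. All chain ratios given here were chosen after the values were seen and carry no test.

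**Figure D2:**
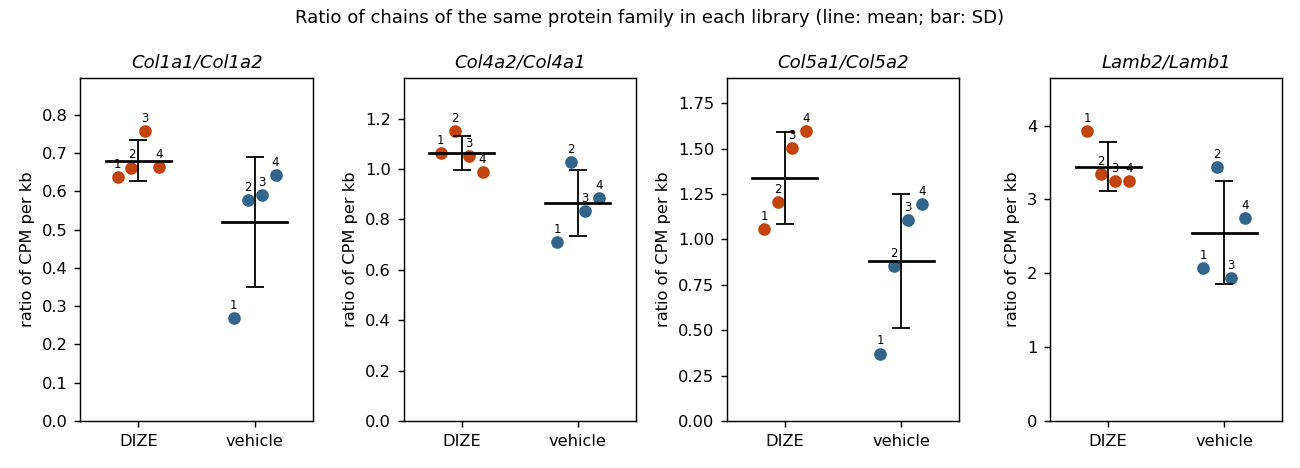
Ratio of the levels (CPM per kilobase) of 2 chains in each library, for DIZE (left, orange) and vehicle (right, blue), with the mean as a line and the SD as a bar, n = 4 each. Vehicle 1 gave the lowest ratio of Col1a1 to Col1a2 (0.269), of Col4a2 to Col4a1 (0.712) and of Col5a1 to Col5a2 (0.371).

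Other interstitial genes lay mostly lower. Of the 10, 7 lay lower and 3 higher in DIZE hearts, against 51.8% lower among all genes tested. At an unadjusted p under 0.05 there were 3, all lower (10.3% of all genes tested were lower at that p). The median log2 fold change was -0.19, or 0.03 without vehicle 3. Col8a1, a short-chain collagen of vessel walls and remodelling heart, had 27.5, 44.1, 36.8 and 36.2 CPM in DIZE hearts, against 74.9, 40.02, 83.8 and 45.1 CPM in vehicle hearts. Vehicle 1 and 3 lay well above the other vehicle libraries, which lay close to DIZE 2. It had the smallest unadjusted p of the list, with a 1.69-fold lower level in DIZE hearts (log2 -0.75 ± 0.24, edgeR adjusted p = 0.145), and left-out libraries moved the log2 value between -0.91 and -0.56.

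Col14a1, which sits on the surface of fibrils and spaces them, had 19.7, 18.03, 34.5 and 37.2 CPM in DIZE hearts, against 55.8, 30.4, 45.05 and 44.7 CPM in vehicle hearts. DIZE 1 and 2 lay below every vehicle library, and DIZE 3 and 4 above vehicle 2 (log2 -0.68 ± 0.25, edgeR adjusted p = 0.186). Between libraries whose titles hold the letters db, log2 of the ratio of means was -1.19, and between the others -0.32.

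Fmod, a leucine-rich proteoglycan that binds type I collagen in dense tissue such as tendon and valve, had 8.42, 7.24, 7.07 and 16.3 CPM in DIZE hearts, against 28.3, 23.1, 5.90 and 28.7 CPM in vehicle hearts. Vehicle 3 was the lowest of all 8 libraries while the other vehicle libraries lay above every DIZE library (log2 -1.14 ± 0.44, edgeR adjusted p = 0.208). The atrial gene Myl7 was highest in vehicle 1, vehicle 4 and DIZE 4, which held 3 of the 4 highest Fmod levels. It had 1.34, 0.79, 15.4 and 42.1 CPM in DIZE 1 to 4, against 278.5, 21.8, 0.67 and 107.8 CPM in vehicle 1 to 4. Comp, a matrix gene of tendon and valve, likewise had 2.69, 0.79, 3.64 and 3.41 CPM in DIZE hearts, against 23.2, 11.3, 1.88 and 20.8 CPM in vehicle hearts. The other 2 tested genes of the valve and tendon list had log2 0.60 ± 0.24 (Sox9) and 0.00452 ± 0.21 (Scx, -0.25 ± 0.23 with the trend removed). The untested genes Chad, Tnmd and Cilp2 were near the floor. Chad had 0.49, 0.13, 0.2 and 0.29 CPM in DIZE hearts, against 3.18, 4.49, 0.27 and 3.63 CPM in vehicle hearts. Tnmd was at 0 in all DIZE libraries and in vehicle 3. Cilp2 had 0 to 0.78 CPM in DIZE hearts and 0.27 to 2.77 CPM in vehicle hearts. All 6 genes summed to 12.8 to 15.7 CPM in DIZE hearts and 13.3 to 39.8 CPM in vehicle hearts. The part of atrial or valve tissue in the Fmod value was not tested.

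Fn1, the fibronectin gene, had 64.6, 52.6, 79.9 and 82.7 CPM in DIZE hearts, against 45.8, 108, 104 and 114 CPM in vehicle hearts. Vehicle 1 was far below the other vehicle libraries, all of which lay above every DIZE library (log2 -0.40 ± 0.26, and -0.63 without vehicle 1). Bgn, the proteoglycan biglycan, had the highest level per length of the list, with 172 CPM per kilobase in DIZE hearts and 189.8 in vehicle hearts, and its log2 fold change was -0.14 ± 0.15. The type VI collagen genes, which form the beaded filaments around cells, had log2 0.15 ± 0.19 for Col6a1, 0.21 ± 0.24 for Col6a2 and -0.08 ± 0.24 for Col6a3, with Col6a1 at -0.07 and Col6a2 at 0.10 once the GC and length trend was removed. For the elastic fibre genes, Eln (elastin) had 72.5 ± 14.5 CPM in DIZE hearts and 58.2 ± 14.8 CPM in vehicle hearts (log2 0.32 ± 0.20, or 0.06 with the trend removed), and Fbn1 (fibrillin) had log2 -0.23 ± 0.30.

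**Figure D3:**
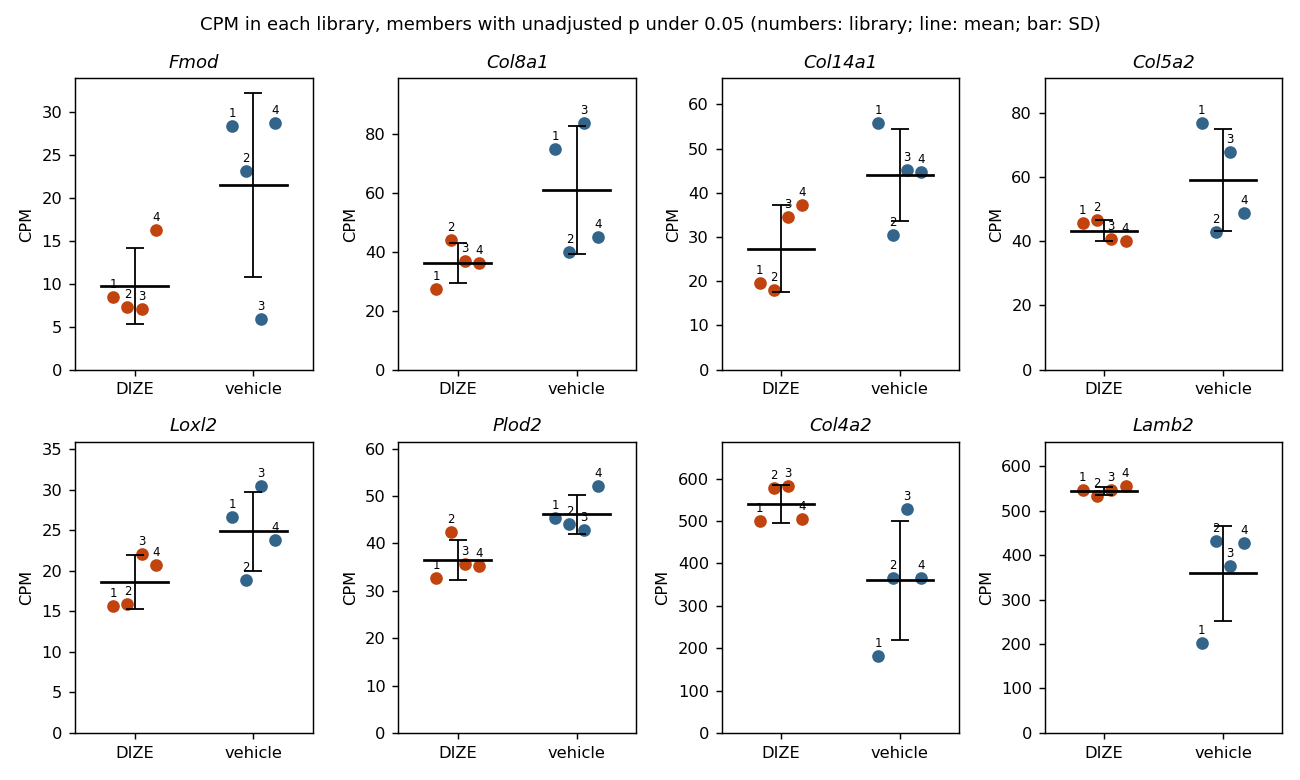
CPM in each library (points, numbered by library) of the 8 genes at an unadjusted p under 0.05, DIZE (orange) left of vehicle (blue), with the mean as a line and the SD as a bar, n = 4 each. The groups do not overlap for Lamb2, higher in DIZE hearts, and Plod2, lower in DIZE hearts, and they overlap for the other 6. Genes without overlap made up 5.56% of the 36, against 12.4% of all genes tested.

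Of the 13 basement membrane genes 7 lay lower and 6 higher in DIZE hearts, against 51.8% lower among all genes tested. Their median log2 fold change was -0.09. The 2 at an unadjusted p under 0.05 were both higher (9.11% of all genes tested were higher at that p). Lamb2, the laminin beta chain found in mature muscle and vessel basement membranes, had 546, 533, 547 and 555 CPM in DIZE hearts, against 203, 432, 375 and 427 CPM in vehicle hearts. The DIZE libraries were nearly equal and all lay above all vehicle libraries, a separation seen in 7.17% of all genes tested in that direction. The level was 1.52-fold higher in DIZE hearts (log2 0.60 ± 0.20, edgeR adjusted p = 0.157). The log2 value was 0.41 without vehicle 1 and 0.38 ± 0.13 with the GC and length trend removed. Lamb2 was at an unadjusted p under 0.05 with each library left out in turn.

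Lamb1, the other beta chain, had 137, 157, 166 and 169 CPM in DIZE hearts and 96.8, 124, 191 and 153 CPM in vehicle hearts, with the groups overlapping (log2 0.16 ± 0.18). The ratio of Lamb2 to Lamb1, in CPM per kilobase, was 3.93, 3.34, 3.25 and 3.25 in DIZE 1 to 4, against 2.07, 3.44, 1.94 and 2.76 in vehicle 1 to 4. Vehicle 2 fell within the DIZE range. With the GC and length trend removed the ratio was 2.86 to 3.58 in DIZE hearts, against 2.47, 3.45, 2.11 and 2.93 in vehicle 1 to 4. Vehicle 4 then also fell within the DIZE range. Lamc1, the gamma chain shared by most laminins of the heart, had 238 ± 12.97 CPM in DIZE hearts and 263 ± 69.1 CPM in vehicle hearts (log2 -0.15 ± 0.17).

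Of the alpha chains, which carry the binding sites for cell receptors, Lama2 serves the cardiomyocyte and Lama4 the capillary. Lama2 had 136, 151, 139 and 145 CPM in DIZE hearts, against 135, 157, 218 and 185 CPM in vehicle hearts. Vehicle 1 and 2 spanned about the DIZE range, and vehicle 3 and 4 lay above it (log2 -0.28 ± 0.14, edgeR adjusted p = 0.304, and -0.08 ± 0.10 with the trend removed). Lama4 had log2 -0.20 ± 0.15, or -0.11 with the trend removed. Lama5, a laminin chain of mature vessels chosen from the wider list after its values were seen, had 389, 385, 326 and 368 CPM in DIZE hearts and 140.3, 240.0, 311 and 296 CPM in vehicle hearts. Its lowest DIZE value was above its highest vehicle value (log2 0.57 ± 0.21, edgeR adjusted p = 0.181).

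Col4a1 and Col4a2, whose chains join in the type IV network of nearly all basement membranes, both had a higher mean in DIZE hearts, by different amounts. Col4a2 had 500.3, 578, 582 and 504 CPM in DIZE hearts, against 182, 365, 527 and 365 CPM in vehicle hearts. Vehicle 3 fell inside the DIZE range and vehicle 1 was far below (log2 0.59 ± 0.25, edgeR adjusted p = 0.229). Col4a1 had 482, 514, 567 and 523 CPM in DIZE hearts, against 262, 364, 649 and 422 CPM in vehicle hearts, where vehicle 3 was the highest of all 8 (log2 0.30 ± 0.22, edgeR adjusted p = 0.481). Without vehicle 1 the log2 values were 0.37 for Col4a2 and 0.12 for Col4a1, and without vehicle 3 they were 0.83 and 0.58. The ratio of Col4a2 to Col4a1 per kilobase was 1.07, 1.15, 1.05 and 0.988 in DIZE hearts, against 0.712, 1.03, 0.834 and 0.887 in vehicle hearts. Vehicle 2 alone of the vehicle libraries reached the DIZE range. The same held for the trend-removed ratio, at 0.958 to 1.17 in DIZE hearts and 1.03 in vehicle 2. With the GC and length trend removed, Col4a1 had log2 0.13, and Col4a2 had 0.37 ± 0.18 and was no longer at an unadjusted p under 0.05. The 2 genes share 22 exon bases on opposite strands, printed above, where reads are uncertain if counting ignored strand.

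The remaining basement membrane genes were not at an unadjusted p under 0.05. Hspg2, the gene of the heparan sulfate proteoglycan perlecan, had 683, 621, 816 and 857 CPM in DIZE hearts and 269, 551, 871 and 667 CPM in vehicle hearts (log2 0.34 ± 0.28, or 0.10 without vehicle 1). Nid1, a nidogen that links laminin to type IV collagen, had 187 ± 7.78 CPM in DIZE hearts and 223 ± 35.5 CPM in vehicle hearts (log2 -0.26 ± 0.12, edgeR adjusted p = 0.282). It was at an unadjusted p under 0.05 with the GC and length trend removed or without vehicle 1. Nid2 had log2 -0.09 ± 0.22, or -0.25 with the trend removed, and 437 of its exon bases overlap Rtraf on the other strand, a gene at 89.3 CPM of all counts in DIZE hearts and 103 in vehicle hearts, so its reads are uncertain where counting ignored strand. Col4a5, a minor type IV chain, had log2 -0.24 ± 0.16. Col15a1 and Col18a1, collagens of the outer face of the basement membrane, had log2 0.24 ± 0.34 and -0.19 ± 0.29. With the trend removed these values were 0.07 ± 0.32 for Col15a1 and -0.44 ± 0.22 for Col18a1.

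**Figure D4:**
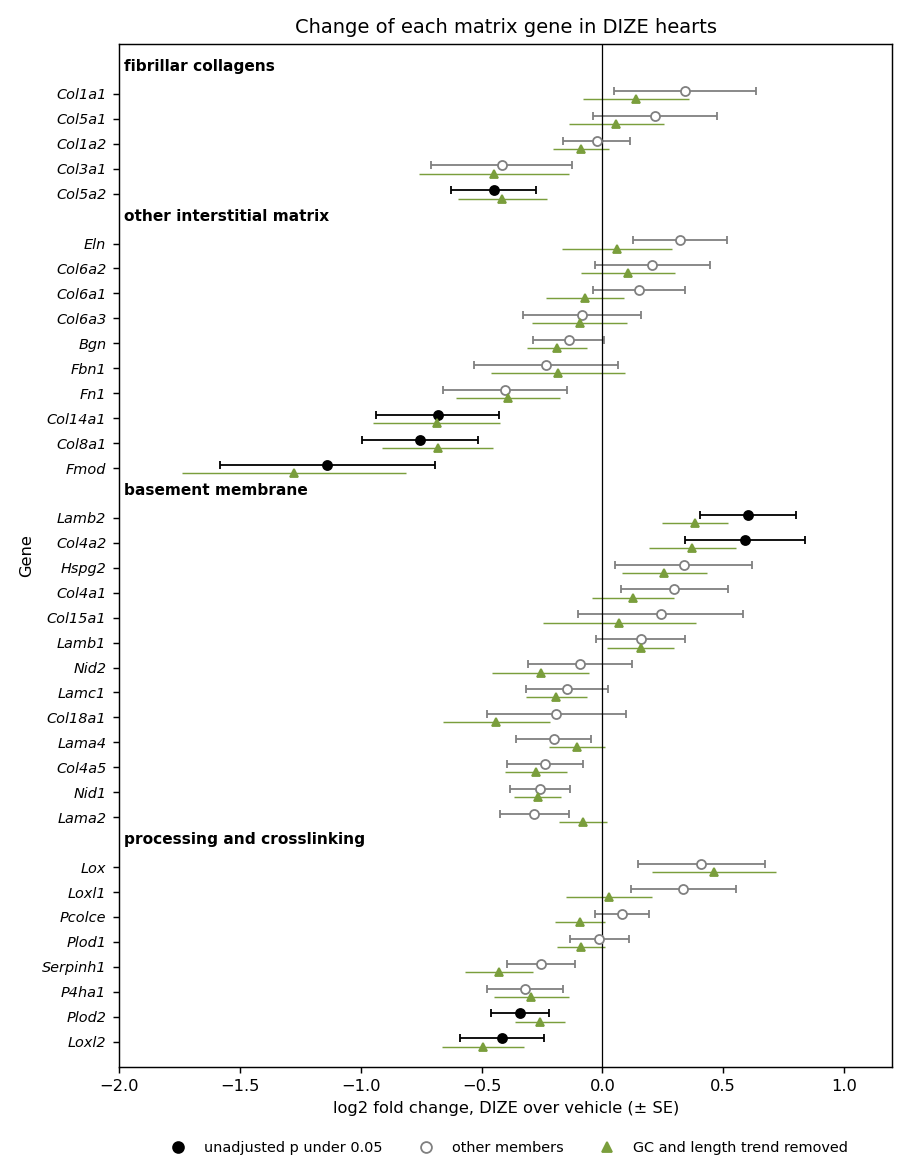
log2 fold change, DIZE over vehicle, of each of the 36 genes by class, with its standard error, as circles (filled at an unadjusted p under 0.05) and, as triangles, after the trend of each library on GC content and length was removed. Filled points are Col5a2, Col14a1, Col8a1, Fmod, Plod2 and Loxl2 to the left of 0 and Lamb2 and Col4a2 to the right, and none passed after adjustment.

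Of the 8 processing genes 5 lay lower and 3 higher in DIZE hearts, against 51.8% lower among all genes tested. Their median log2 fold change was -0.13. The 2 at an unadjusted p under 0.05 were both lower (10.3% of all genes tested were lower at that p). Plod2, the lysyl hydroxylase that prepares collagen ends for stable crosslinks, had 32.7, 42.5, 35.6 and 35.3 CPM in DIZE hearts, against 45.5, 44.1, 42.9 and 52.1 CPM in vehicle hearts. Every DIZE value was below the lowest vehicle value, a separation seen in 5.26% of all genes tested in that direction, though DIZE 2 and vehicle 3 were within 1 CPM. The level was 1.26-fold lower in DIZE hearts (log2 -0.34 ± 0.12, edgeR adjusted p = 0.172), and left-out libraries kept it between -0.42 and -0.28. Plod1, which modifies lysines of the helix, had 113 ± 9.54 CPM in DIZE hearts and 114 ± 15.2 CPM in vehicle hearts (log2 -0.01 ± 0.12, or -0.09 with the trend removed).

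The lysyl oxidases, which oxidise lysines so that fibres become crosslinked, did not share a sign. Loxl2 had 15.6, 15.9, 22.1 and 20.8 CPM in DIZE hearts, against 26.6, 18.9, 30.4 and 23.7 CPM in vehicle hearts. Vehicle 2 lay below DIZE 3 and 4 and the other vehicle libraries above all DIZE libraries (log2 -0.42 ± 0.17, edgeR adjusted p = 0.226). Lox had 18.1, 17.5, 9.40 and 9.36 CPM in DIZE hearts, against 10.5, 13.7, 8.31 and 8.24 CPM in vehicle hearts. DIZE 1 and 2 lay well above DIZE 3 and 4, and in the vehicle group vehicle 1 and 2 were also above vehicle 3 and 4 (log2 0.41 ± 0.26). In both groups the first 2 are the libraries with db in the title. Loxl1 had 55.4, 47.2, 84.5 and 70.0 CPM in DIZE hearts and 39.8, 43.1, 72.4 and 49.0 CPM in vehicle hearts (log2 0.34 ± 0.22, or 0.03 with the GC and length trend removed). With the form of the title as a block, Lox and Loxl1 were both at an unadjusted p under 0.05, and neither passed after adjustment.

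Serpinh1, the collagen-specific chaperone, had the second highest level per length in vehicle hearts, with 59.2 CPM per kilobase in DIZE hearts and 70.6 in vehicle hearts. In CPM it had 115, 129, 155 and 139 in DIZE hearts, against 159.9, 134, 196 and 153 in vehicle hearts, with overlap (log2 -0.25 ± 0.14, edgeR adjusted p = 0.334). With the trend removed it had log2 -0.43 ± 0.14 and was at an unadjusted p under 0.05. P4ha1, a prolyl hydroxylase subunit needed for a stable triple helix, had log2 -0.32 ± 0.16, with vehicle 3 and 4 high at 54.7 and 49.4 CPM. Pcolce, which speeds the trimming of procollagen, was nearly level, at 67.7 ± 5.45 CPM in DIZE hearts and 64.1 ± 5.57 CPM in vehicle hearts (log2 0.08 ± 0.11, and -0.09 with the trend removed).

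Other genes of the pathway were counted from a wider list of 91 genes of collagen, laminin, elastic fibre, processing and receptor families, 72 of them tested. Of these, 34 lay lower and 38 higher in DIZE hearts, 12 lower (10.3% of all genes) and 9 higher (9.11%) at an unadjusted p under 0.05, and none passed after adjustment (smallest edgeR adjusted p = 0.0888). DESeq2 called 11 of them, where it called 4.44% of all genes. The median log2 fold change was 0.03. With the GC and length trend removed it was -0.10, and 47 of the 72 lay lower (49.7% of all genes). At an unadjusted p under 0.05, 17 were then lower (9.53% of all genes) and 6 higher (8.9%). Mfap4, a microfibril protein, had 21.2, 10.3, 30.5 and 22.5 CPM in DIZE hearts, against 75.8, 39.4, 61.1 and 45.3 CPM in vehicle hearts, with no overlap (log2 -1.38 ± 0.30, edgeR adjusted p = 0.0888). Aspn, a leucine-rich proteoglycan, had 35.2 ± 2.94 CPM in DIZE hearts and 66.6 ± 24.5 CPM in vehicle hearts (log2 -0.92 ± 0.21).

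Receptors for this matrix lay on both sides. Of 11 tested, 7 were at an unadjusted p under 0.05, 3 lower (10.3% of all genes) and 4 higher (9.11%). With the trend removed, 4 were lower (9.53% of all genes) and 3 higher (8.9%) at that p. Groups did not overlap for 1 lower (5.26% of all genes) and 4 higher (7.17%). The collagen receptors Ddr2, of fibroblasts, and Itga1 had log2 -0.81 ± 0.18 and -0.85 ± 0.22, while Ddr1, of epithelial and other cells, had 0.61 ± 0.17. With the trend removed Itga1 had -0.55 and Ddr1 0.35. Ddr2 had 26.2, 27.0, 31.8 and 27.7 CPM in DIZE hearts, against 59.7, 32.3, 59.7 and 45.7 CPM in vehicle hearts, with no overlap. Laminin receptors with no overlap between groups were Itga7, the main laminin integrin of striated muscle, at 228, 471, 286 and 258 CPM in DIZE hearts and 102, 200.2, 158 and 175 CPM in vehicle hearts (log2 0.97 ± 0.25), Itga3 (log2 0.76 ± 0.17) and Bcam, a receptor for laminins with the Lama5 chain (log2 0.50 ± 0.15). Bcam had 0.24 ± 0.13 with the trend removed and was no longer at an unadjusted p under 0.05. Itga6, another laminin integrin, lay the other way (log2 -0.67 ± 0.21), and Dag1, the dystroglycan gene, had log2 0.55 ± 0.27, both chosen after their values were seen. Over these 8 genes the edgeR adjusted p ranged from 0.0888 to 0.298, the highest being that of Dag1.

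**Figure D5:**
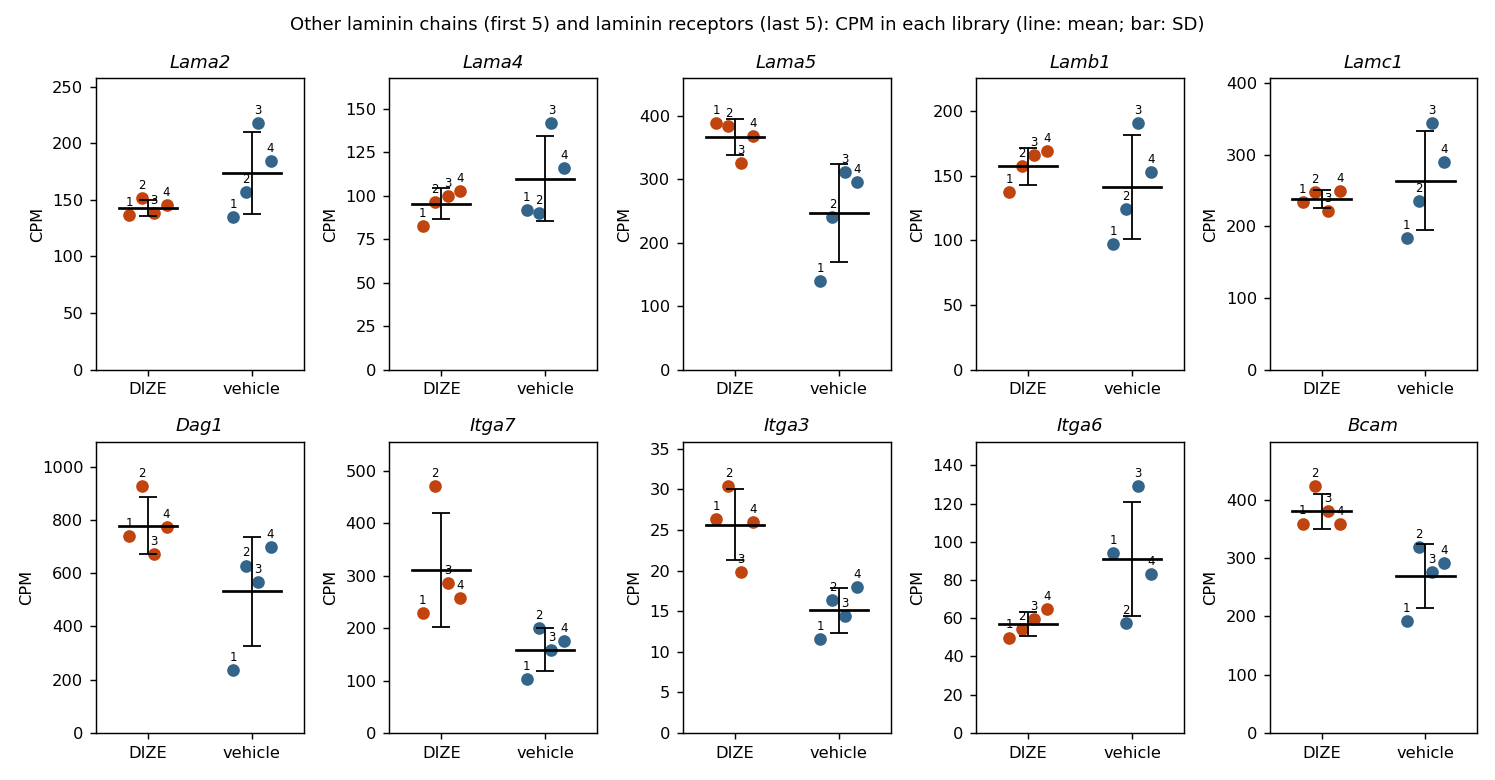
CPM in each library of 5 other laminin chains (Lama2, Lama4, Lama5, Lamb1, Lamc1) and 5 laminin receptors (Dag1, Itga7, Itga3, Itga6, Bcam), DIZE (orange) left of vehicle (blue), with the mean as a line and the SD as a bar, n = 4 each. DIZE libraries lay above all vehicle libraries for Lama5, Itga7, Itga3 and Bcam, and vehicle 1 was the lowest vehicle library for each of these 4.

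On GRCm38 (mm10), Lamb2 lies on chromosome 9 from 108479736 to 108490530 and Col8a1 on chromosome 16 from 57624258 to 57754737. Plod2 lies on chromosome 9 from 92542223 to 92608428, Loxl2 on chromosome 14 from 69609068 to 69695834 and Fmod on chromosome 1 from 134037254 to 134048277. Col14a1 lies on chromosome 15 from 55307750 to 55520803. Col3a1 and Col5a2 are neighbours on chromosome 1 that point toward each other, 24614 bases apart with 0 protein-coding genes between them, and both lay lower in DIZE hearts. Col6a1 and Col6a2 are neighbours on chromosome 10 on the same strand, 85161 bases apart. Exons of 15 of the 36 genes overlap another annotated gene, and for 5 of them that gene had at least 1 CPM in either group.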

How the data were processed

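Heart RNA from 4 DIZE and 4 vehicle db/db libraries was analysed from the deposited table of raw counts, whole reads per Ensembl gene with no normalization. Tools listed in the submitters' processing notes are HTSeq 0.6.1p1, STAR 2.7.3, R 4.1 and edgeR, with build mm10. For the counting, the annotation and strand setting are not stated in those sources. Column names matched the labels' descriptions, and totals were 7447664 to 10161623. The most alike pair of libraries, DIZE 3 and DIZE 4, gave a chi-square of 5.54 per degree of freedom, so no column was a copy of another. This value cannot tell whether 2 libraries came from the same heart.

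DIZE and vehicle were compared with edgeR 4.0.16 in R 4.3.3 (TMM, filterByExpr at minimum count 10 and total 15, robust quasi-likelihood, two-sided, no covariate), with Benjamini-Hochberg adjustment over all 13648 tested genes. Symbols matched 55141 of 55487 IDs. Positions, GC content and length came from GENCODE vM21 of GRCm38, per-length levels used the principal transcript, and promoter windows came from RefSeq (GRCm38.p6). Trends on GC content and exon length were loess fits per library (span 0.3, 13638 genes). Alternatives were DESeq2 1.42.0, limma 3.58.1 voom (unweighted or weighted by library), DESeq2 size factors, other filters, a block for title form or title number, and fits with 1 library left out. The test was run on simulated data first.

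The members, lists and tests were chosen with earlier results of these data known. All members are named. Per-library values are given for members at an unadjusted p under 0.05 and for type I, III and IV chains, and for others where libraries disagree. From the wider list up to 4 genes a direction with the smallest unadjusted p were eligible.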

Additional observations from a re-analysis of the deposited data

Results flagged for a closer look

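Among 72 sets of 4 values (36 genes, each in both groups), Dixon's test picked out 2 with 1 library far from the other 3, where chance alone picks about 1 in 20 sets. For Fmod it was DIZE 4, at 16.3 CPM, while the other DIZE libraries had 7.07 to 8.42 CPM. For Fn1 it was vehicle 1, at 45.8 CPM, while 104 to 114 CPM were found in the rest of the vehicle group.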

How the results depend on the processing

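Under all 9 alternatives and with each library left out, 0 of the 36 genes passed the adjusted threshold. Some settings came close to it. The smallest adjusted p of the list was 0.0522 in voom with library weights, 0.0576 in DESeq2 and 0.0606 in edgeR without vehicle 2. In the main edgeR fit it was 0.145. The count at an unadjusted p under 0.05 was 8 in the main fit (19.4% of all genes tested), and 3 to 10 with a library left out. It was 3 without DIZE 1 (16.2% of all genes) and 10 without vehicle 1 (16.4%). In voom with library weights it was 12 (24.1%), and with the title form as a block 10 (20.1%). The count of lower genes was 22, and 16 to 22 with a library left out. With a library left out the class medians ranged from -0.11 to 0.05 for fibrillar collagens, -0.30 to 0.03 for other interstitial genes (lowest without DIZE 3, highest without vehicle 3), -0.16 to 0.065 for basement membrane genes (lowest without DIZE 4, highest without vehicle 2) and -0.19 to -0.04 for processing genes. Over all tested genes edgeR called 5, DESeq2 606, voom with library weights 446, edgeR without a low-count filter 386 and edgeR without vehicle 2 240, with 0 under the title number as a replicate block. The wider list had 0 calls in edgeR, 11 in DESeq2, 3 in voom with library weights, 7 without a low-count filter and 0 to 7 with a library left out (7 without vehicle 2). The cause was not tested. Signs turned for Plod1 (log2 0.0062 without a filter and 0.00057 with the title number as a replicate block) and, with the GC and length trend removed, for Col6a1 (-0.073) and Pcolce (-0.093). Leaving out 1 library turned Col1a2 (-0.11 to 0.052), Col6a3 (-0.23 to 0.12), Fbn1 (-0.41 to 0.14), Col18a1 (-0.39 to 0.065), Lamc1 (-0.28 to 0.011), Nid2 (-0.28 to 0.060) and Plod1 (-0.075 to 0.061). The title number as a replicate block left 6 genes at an unadjusted p under 0.05, where 14.2% of all genes tested were. DIZE 3 and vehicle 4 share their numbers with no other library, so they added nothing to the group difference in that fit. Titles of both groups hold the numbers 1 and 4, with 4 on 2 libraries of each group. Same-numbered libraries correlated from -0.14 to 0.02 in their deviations, so no pairing was seen. With 4 repeated in each group, these values cannot exclude a common origin of same-numbered libraries.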
